A study of Mus musculus with 2 samples.

Results

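The 10 hnRNP family genes Hnrnpa1, Hnrnpa2b1, Hnrnpc, Hnrnpd, Hnrnpdl, Hnrnph1, Hnrnph3, Hnrnpk, Hnrnpl and Hnrnpll were taken by symbol, with older symbols accepted, out of 17348 protein-coding genes that have a splice junction in the exon database. All 10 were detected in both libraries. Inclusion of their exons was read from 181 SpliceTrap trios, each an upstream exon, a middle segment and a downstream exon, out of 228333 in the whole series. Of these, 180 reached 20 reads or more in each library. They describe 138 events when the trio with the most reads stands for each middle segment.

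RNA was sequenced from N2A cells, a mouse neuroblastoma line, in 1 library that received a control shRNA and 1 that received an shRNA against Ptbp1, both collected 3 d after transfection and read as strand-specific pairs of 100 bases. There are no replicates, so each difference compares 2 libraries, and every interval and p-value covers counting error only. Distinct splice junctions of the exon database received 74382387 reads in the control and 58295142 in the knockdown library. The knocked-down gene, Ptbp1, had 40588 junction reads in the control and 10676 in the knockdown library, or 545.7 and 183.1 per 1000000 junction reads of the library (RPM), a log2 ratio of -1.58 (95% interval -1.61 to -1.54). In this cell line, 9 of 14 neuroblastoma and neuronal markers had at least 100 junction reads in the control and 10 in the knockdown library. Their summed level was 698.1 and 868.1 RPM, and 647.6 and 646.8 RPM without Dbh, which had 3755 and 12900 junction reads. Stmn2 had 11650 and 6794 reads, Tubb3 16260 and 12085, Chga 8777 and 6726, and the neurofilament genes Nefl and Nefm had at most 3. Summed markers of fibroblasts were at 3.25 and 8.05 RPM, of glia at 2.46 and 1.75, and of immune cells at 0.269 and 0.429. The part of these differences in the results below was not tested.

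Heterogeneous nuclear ribonucleoproteins bind nascent transcripts in the nucleus and act in packaging, splicing, export and decay of RNA. PTBP1 itself, also called hnRNP I, is a pyrimidine-binding member of this class and represses many exons that neurons include. Many hnRNP genes are themselves alternatively spliced, and several make transcripts with premature stop codons that are removed by nonsense-mediated decay.

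The segments on which the results turn are shown 5′ to 3′ on the coding strand, from the NCBIM37 (mm9) assembly. In each of the lines that follow, capitals mark the alternative segment and lower case marks 30 bases of flanking sequence. The first is an exon of Hnrnpa2b1 near its start, and the next one close to its coding end (chr6:51417360-51417455 and chr6:51414397-51414576, minus strand). They are followed by the alternative donor segment of Hnrnpc (chr14:52701434-52701532), the cassette exon of Hnrnpd (chr5:100392720-100392926), the mostly included exon of Hnrnpdl (chr5:100465470-100465700) and the alternative acceptor segment of Hnrnpk (chr13:58493778-58493867, shown with upstream flank alone), all on the minus strand.
Hnrnpa2b1, 36 nt: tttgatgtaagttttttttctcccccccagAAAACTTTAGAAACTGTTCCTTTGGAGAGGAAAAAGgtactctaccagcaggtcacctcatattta
Hnrnpa2b1, 120 nt: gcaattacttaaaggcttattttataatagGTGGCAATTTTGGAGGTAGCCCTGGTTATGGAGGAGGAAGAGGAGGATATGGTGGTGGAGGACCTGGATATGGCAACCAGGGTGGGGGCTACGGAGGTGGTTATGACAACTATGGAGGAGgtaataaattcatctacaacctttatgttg
Hnrnpc, 39 nt: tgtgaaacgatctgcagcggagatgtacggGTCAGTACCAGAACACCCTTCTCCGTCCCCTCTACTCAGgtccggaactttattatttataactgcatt
Hnrnpd, 147 nt: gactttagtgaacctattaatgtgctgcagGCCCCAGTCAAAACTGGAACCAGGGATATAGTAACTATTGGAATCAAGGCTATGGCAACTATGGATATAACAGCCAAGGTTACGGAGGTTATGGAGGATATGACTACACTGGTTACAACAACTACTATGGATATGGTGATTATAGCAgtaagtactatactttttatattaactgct
Hnrnpdl, 171 nt: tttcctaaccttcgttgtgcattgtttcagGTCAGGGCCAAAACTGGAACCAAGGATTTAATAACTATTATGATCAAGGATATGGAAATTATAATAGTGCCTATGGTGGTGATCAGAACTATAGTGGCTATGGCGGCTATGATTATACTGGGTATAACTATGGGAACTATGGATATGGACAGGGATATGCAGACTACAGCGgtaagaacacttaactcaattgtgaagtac
Hnrnpk, 60 nt: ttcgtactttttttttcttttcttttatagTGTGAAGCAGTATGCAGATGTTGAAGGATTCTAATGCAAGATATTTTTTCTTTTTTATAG

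The exons of 136 nt in Hnrnpa2b1 and 105 nt in Hnrnpdl lie outside the coding sequence, and only the 30 bases before each are shown (chr6:51412055-51412084 and chr5:100464759-100464788, minus strand). Neither of these 2 stretches holds the motif TCTT, a short pyrimidine element of the kind PTBP1 binds.
Hnrnpa2b1, before the 136 nt exon: atatcatttttttccctgctggaattttag
Hnrnpdl, before the 105 nt exon: ctgacattataccttgtttgtacccgccag

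The 100 bases before the 136 nt exon of Hnrnpa2b1 were 74.0% pyrimidine, a share higher than in 96.6% of the 6397 cassette events of all genes that have such a window, whose median was 56.0%. Before the 105 nt exon of Hnrnpdl the share was 45%, higher than in 5.4% of them, before the 147 nt exon of Hnrnpd it was 59.0% and before the 120 nt exon of Hnrnpa2b1 42.0%. These 4 windows hold TCTT 1 time each. The windows before the 36 nt exon of Hnrnpa2b1 (56.0% pyrimidine) and the 171 nt exon of Hnrnpdl (46.0%) hold none. The window of Hnrnpd also holds CTCTCT 1 time. The windows before the 136 and 36 nt exons of Hnrnpa2b1 and both exons of Hnrnpdl overlap an annotated exon. They are thus not intron in every form. How many of the 6397 windows overlap one was not counted. Searched on the coding strand alone, TCTT is present in 65.4% of the windows of all cassette events, CTCT in 56.5% and CTCTCT, which contains CTCT, in 11.2%.

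The levels of the 10 genes were compared first. By distinct junction RPM, none of the 10 differed by a log2 ratio of 0.5 in either direction, where 21% of 10475 genes tested were higher by this much and 2.27% were lower. The level was lower in the knockdown library for 9 of the 10, with a median log2 ratio of -0.16, against a median of 0.16 over all genes tested. Relative to that median, 9 of the 10 were lower, and values ranged from -0.46 for Hnrnpk to 0.03 for Hnrnph3. Before that scaling, 30.5% of all genes tested had a log2 ratio under that of Hnrnpd (-0.01), the highest of the 9 below 0. Since the samples are bulk RNA, fewer cells of a type and less RNA per cell cannot be told apart.

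Among the proteins that package nascent RNA, Hnrnpa1, a splicing repressor that also shuttles to the cytoplasm, had 2224 junction RPM in the control and 1934 in the knockdown library (log2 ratio -0.20, 95% interval -0.21 to -0.19). Hnrnpa2b1, its closest relative among the 10, had 2006 and 1681 RPM (-0.26, -0.27 to -0.24). Hnrnpc, whose protein forms tetramers on uridine tracts, had 477.2 and 391.9 (-0.28, -0.31 to -0.26). The intervals of all 3 lay below 0. A read pair that crosses several junctions of a gene can be counted at each, so the intervals of gene levels may be too narrow.

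For Hnrnpd, which encodes the AU-rich element binding protein AUF1, the level was 431.2 in the control and 429.5 in the knockdown library, a difference within counting error (-0.01, -0.03 to 0.02). Its relative Hnrnpdl had 327.8 and 318.2 RPM (-0.04, -0.07 to -0.02). The G-run binding proteins are encoded by Hnrnph1, with 864.8 and 848.3 RPM (-0.03, -0.04 to -0.01), and Hnrnph3, with 77.6 and 88.4. Hnrnph3 was the member of the 10 that was higher in the knockdown library (0.19, 0.13 to 0.24).

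Hnrnpk, a KH domain protein that binds poly(C), had 1574 junction RPM in the control and 1283 in the knockdown library (-0.29, -0.31 to -0.28), the lowest log2 ratio of the 10. Hnrnpl, a CA-repeat binding splicing regulator whose RNA recognition motifs resemble those of PTBP1, had 538.6 and 493.5 (-0.13, -0.15 to -0.10). Its paralog Hnrnpll had 212.4 and 184.8 (-0.20, -0.24 to -0.17). The share of all tested genes with a lower log2 ratio was 7.68% for Hnrnpk, 8.06% for Hnrnpc, 9.40% for Hnrnpa2b1 and 53.1% for Hnrnph3.

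Within a gene, the single junctions with at least 100 reads in each library did not all move together. Each junction was taken at its largest count over the trios that list it. In Hnrnpk all 18 were lower in the knockdown library, with log2 ratios from -0.50 to -0.04, and in Hnrnpll all 12, from -0.39 to -0.01. In Hnrnpa2b1 the 17 junctions ranged from -0.44 to 0.41, and the highest value belonged to the junction that joins the 136 nt exon to the exon before it, with 713 reads in the control and 745 in the knockdown library. In Hnrnpc the 15 junctions ranged from -0.45 to 0.44. In Hnrnph3 the 11 ranged from -0.0046 to 0.35.

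**Figure D1:**
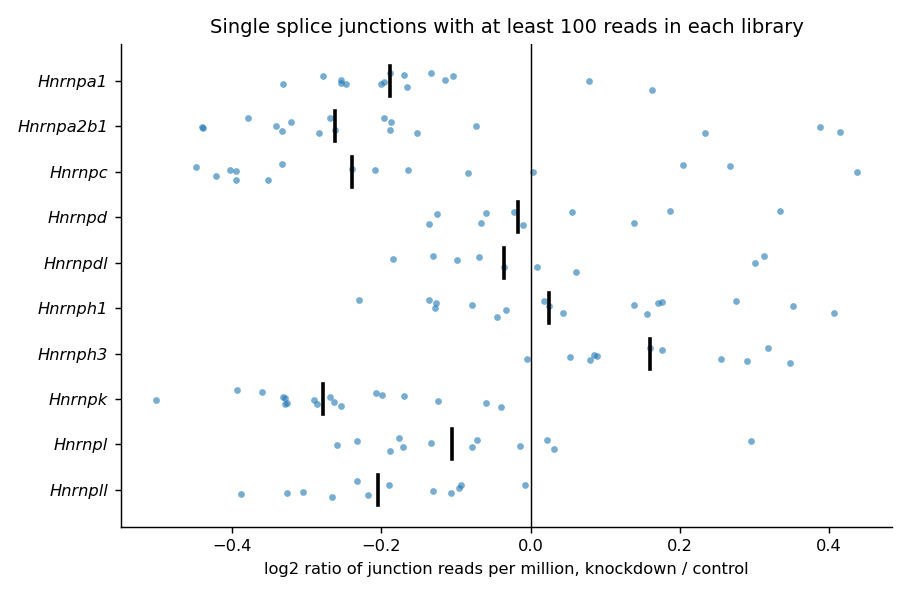
Log2 ratio of RPM (knockdown library over control library, x axis) of each splice junction with at least 100 reads in each library, by gene. Each point is 1 junction and the black bar is the median of the gene, which lies at -0.28 for Hnrnpk and at 0.16 for Hnrnph3, with points shifted vertically at random for legibility.

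Depth summed over all Cufflinks isoforms, RefSeq and assembled, gave log2 ratios below 0 for all 10, from -0.51 for Hnrnpa1 to -0.01 for Hnrnph1, with Hnrnph3 at -0.29 where junction reads gave 0.19. RefSeq isoforms alone gave other values. On that scale 4 of the 10 genes were higher by at least 0.5, where 24.6% of 10163 genes tested were, and 1 was lower by at least 0.5, where 11.7% were, and the median was 0.28 for the 10 and 0.11 for all genes. The 4 were Hnrnpa1 (1.23), Hnrnpa2b1 (2.19), Hnrnph3 (1.13) and Hnrnpk (2.05), and the lower one was Hnrnpc (-2.37). Hnrnpdl (0.12), Hnrnph1 (0.29) and Hnrnpll (0.26) were also above 0 on this scale, where junction reads put them below. Cufflinks had placed 87.7% of the depth of Hnrnpa1 on assembled isoforms in the control and 60.7% in the knockdown library. For Hnrnpa2b1 these shares were 81.7% and 0%, for Hnrnph3 61.4% and 0%, for Hnrnpk 93.6% and 68.1%, and for Hnrnpc 31.1% and 84.0%. In Hnrnpa2b1, the RefSeq isoform of 4085 nt was listed at 0 in the control library beside an assembled isoform of 3939 nt at a depth of 5417 per base, and at 3037 per base in the knockdown library, where no isoform was assembled. The RefSeq values of these 5 genes thus move with the assignment of reads between the 2 kinds of isoform, and junction reads, which do not depend on it, differ in direction for Hnrnpa1, Hnrnpa2b1 and Hnrnpk. Several of these genes also have processed copies in the mouse genome. How reads shared with such copies were counted is not given in the sources used here. Both isoform depth and junction reads are uncertain in that respect.

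**Figure D2:**
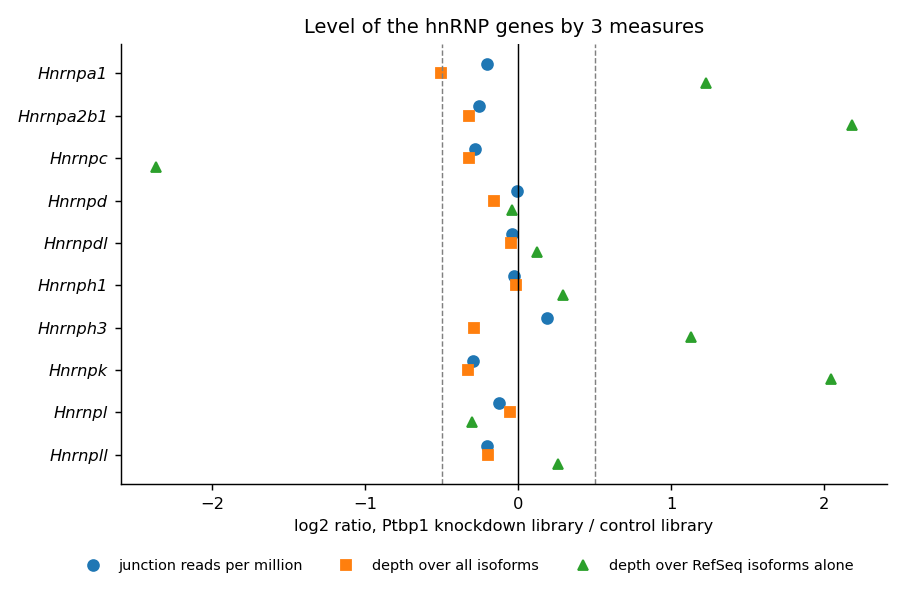
Log2 ratio of the level of each hnRNP gene in the knockdown library over the control library (x axis) by junction RPM (circles), depth over all isoforms (squares) and depth over RefSeq isoforms alone (triangles). Circles lie between -0.29 and 0.19, triangles between -2.37 and 2.19, and the dashed lines stand at log2 ratios of 0.5 in either direction.

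A list of 25 further hnRNP and hnRNP-like genes gave 22 with enough junction reads. Of these, 1 was higher and 1 lower by a log2 ratio of at least 0.5, and the median was -0.09. The higher one was Ptbp2, the neuronal paralog of Ptbp1, with 76.4 and 184.2 RPM (1.27). The lower one was Ptbp3, with 53.3 and 36.7 (-0.54). Hnrnpab had 1096 and 832.4 (-0.40), Pcbp4 116.6 and 92.4 (-0.34) and Hnrnpf 124.5 and 99.9 (-0.32), which complete the 5 largest absolute values of the list.

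Splicing of the 10 genes was compared next, as PSI, the percent that include the middle segment among the transcripts of a trio. Of the 138 events, 97 had a PSI over 95 in both libraries and 7 under 5 in both. The other 34 were of intermediate PSI in at least 1 library. PSI rose by at least 5 points in 6 of the 138, where 2.72% of 121471 events of all genes did, and fell by at least 5 points in 2, where 2.68% did. All 8 were among the 34 of intermediate PSI, for which the shares in all genes were 25.3% rising and 25% falling of 12950 events. PSI was higher in the knockdown library in 26 of the 34 and lower in 8, against 48.7% and 50.8% of the intermediate events of all genes. Many of the 34 share exons and reads. The 104 events outside the 34 changed by -1.0 to 1.8 points.

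Inclusion and skipping junction reads of the 2 libraries were compared by two-sided Fisher's exact tests, with Benjamini-Hochberg adjustment over all trios of all genes. Inclusion counts of alternative donors, alternative acceptors and retained introns also hold reads across unspliced boundaries of the segment. Counts of an event, its junction PSI and its test are from its own trio. Another trio can list the same junction with more reads, and junction PSI was not computed from the larger counts. Of the 34 events, 10 had an adjusted p under 0.05, where 5.14% of the intermediate events of all genes did. The members were read more deeply, with a median of 10326 trio reads in the control and 6850 in the knockdown library, against 503 and 473 for the intermediate events of all genes, and the part of depth in this count was not tested. Of the 10, PSI was higher in the knockdown library in 6 and lower in 4.

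**Figure D3:**
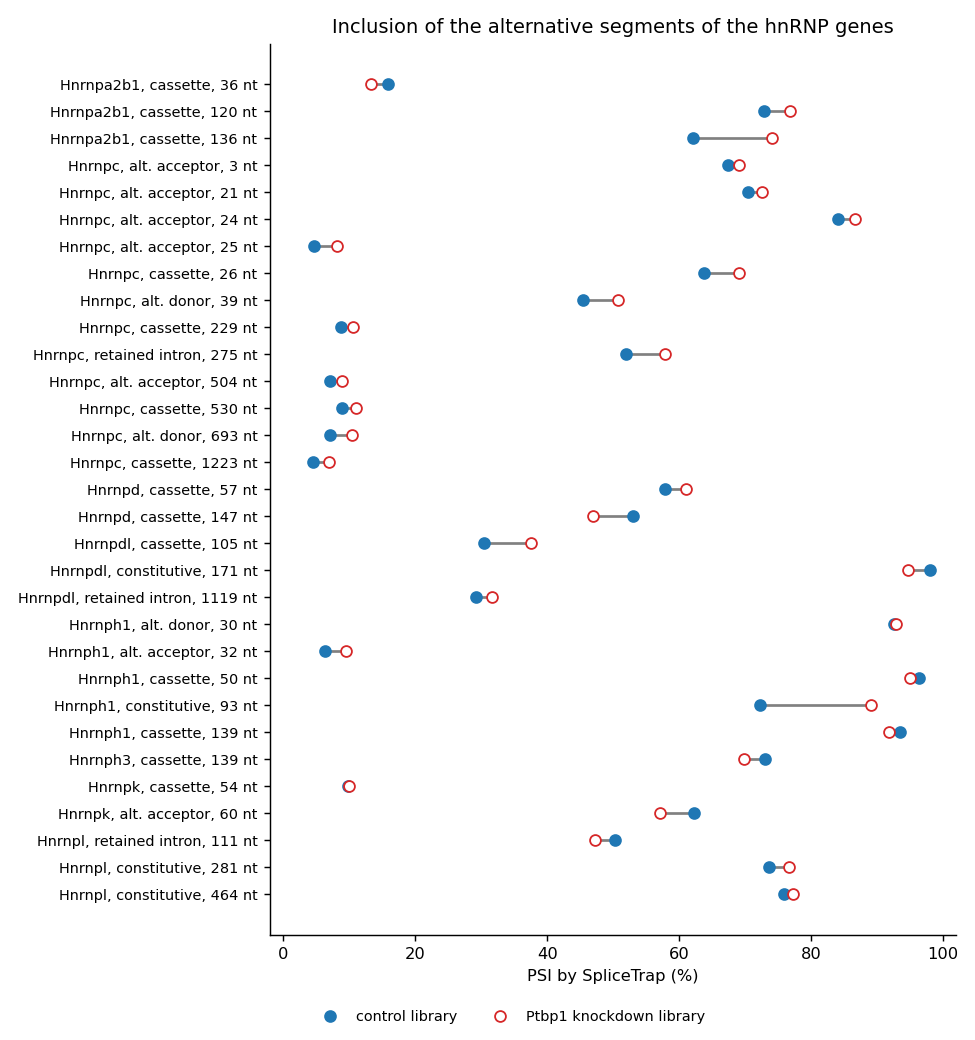
PSI by SpliceTrap (x axis, percent) in the control library (filled circles) and the Ptbp1 knockdown library (open circles) of the events of intermediate PSI described in the text, named by gene, class and length of the middle segment. The widest spans are the 93 nt exon of Hnrnph1 from 72.3 to 89.0, which has 5 and 3 skipping reads, and the 136 nt exon of Hnrnpa2b1 from 62.1 to 74.1.

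The largest change that junction reads also showed was in Hnrnpa2b1, in the 136 nt exon whose upstream bases are shown above (chr6:51411919-51412054, in the 3′ untranslated side of the gene). PSI was 62.1 in the control and 74.1 in the knockdown library. This is a share within the trio, not of all transcripts of the gene. The exon before it was mostly joined to a longer 3′ exon that spans its position (chr6:51410434-51413253). That junction had 17309 reads in the control and 10766 in the knockdown library. In the trio of the event, the inclusion junctions of the 136 nt exon had 1056 and 530 reads in the control and 988 and 571 in the knockdown library. Its skipping junction had 594 and 336. Junction PSI, the mean of both inclusion junctions over this mean plus skipping, was 57.2 and 69.9, a difference of 12.7 points (95% Newcombe interval 8.94 to 16.4, exact adjusted p = 3.72e-08, Fisher's exact test). The largest counts of any trio were 1074, 713 and, for skipping, 972 in the control library. In the knockdown library they were 990, 745 and 562. Inclusion reads were nearly level while skipping reads were fewer, in a library with fewer reads in all.

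The other 2 events of Hnrnpa2b1 were smaller. The 120 nt exon (chr6:51414427-51414546), which encodes part of the glycine-rich region of the protein, went from a PSI of 72.9 to 76.8, with 2203 skipping reads in the control and 1324 in the knockdown library (junction difference 2.54 points, 1.26 to 3.80, exact adjusted p = 0.022, Fisher's exact test). The largest counts of any trio were 11504, 8891 and, for skipping, 4052 in the control library. In the knockdown library they were 7912, 6081 and 2341. The 36 nt exon (chr6:51417390-51417425), whose inclusion makes the longer of both main protein forms, went the other way, from 15.9 to 13.3. Its skipping junction had 10436 reads in the control and 7776 in the knockdown library, and its inclusion junctions 2177 and 421 against 1312 and 297 (-1.69 points, -2.52 to -0.84, exact adjusted p = 0.0206).

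In Hnrnpc, PSI was higher in the knockdown library in all 12 events of intermediate PSI, 8 of them on the 5′ untranslated side of the gene and 4 in the coding sequence. Of the 8, all but the 25 nt acceptor segment lie within one form of 1223 nt and share reads. By the genomic left inclusion junction alone, 1 of the 8, of 229 nt, was lower by 1.7 points, and the 25 nt segment was higher by 0.2. The 39 nt alternative donor segment (chr14:52701464-52701502), which separates the longer from the shorter hnRNP C protein, went from 45.4 to 50.7. Its splice junction had 1016 reads in the control and 751 in the knockdown library. The unspliced boundary on its other side had 174 and 132, and the skipping junction 1057 and 624. From these counts, junction PSI was 36.0 and 41.5 (5.45 points, 1.70 to 9.20), and the adjusted p was 0.451 by Fisher's exact test. Another trio listed the skipping junction at 1632 and 973 reads. The interval of the single event lay above 0, but the change did not pass adjustment over all trios.

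Of the events before the coding sequence of Hnrnpc, the 26 nt exon (chr14:52717690-52717715) went from 63.8 to 69.1, with 1594 and 930 skipping reads (4.76 points, 2.17 to 7.33, exact adjusted p = 0.0557, Fisher's exact test). The retained intron of 275 nt went from 51.9 to 57.8, but only 18 and 4 reads spliced it out (exact adjusted p = 0.576). The long form of 1223 nt, which spans both, went from 4.5 to 6.9 (junction difference 7.29 points, 4.58 to 10.1, exact adjusted p = 4.17e-05), with 219 and 249 inclusion reads and 1609 skipping reads in the control library against 200, 270 and 941 in the knockdown library. It was the single event of Hnrnpc with an adjusted p under 0.05. The other 5 of these events, of 25 to 693 nt, were higher by 1.8 to 3.4 points, and the coding acceptor choices of 3, 21 and 24 nt by 1.6 to 2.5 points.

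Hnrnpd and Hnrnpdl each hold an exon that encodes a tyrosine- and glycine-rich stretch of the protein, and its inclusion was lower in the knockdown library in both. In Hnrnpd the 147 nt exon (chr5:100392750-100392896) went from a PSI of 53.0 to 47.0. The inclusion junctions had 2271 and 2700 reads in the control and 1620 and 1912 in the knockdown library, and the skipping junction 2466 and 2181. Junction PSI was 50.2 and 44.7 (-5.46 points, -7.54 to -3.37, exact adjusted p = 0.000127, Fisher's exact test). The remaining event of Hnrnpd, an exon of 57 nt near the start of the coding sequence (chr5:100405553-100405609), was at 57.8 and 61, with 1260 and 968 skipping reads (3.74 points, 0.79 to 6.68, exact adjusted p = 0.908).

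In Hnrnpdl the 171 nt exon (chr5:100465500-100465670), the database's constitutive class, was included at 98.0 in the control and 94.7 in the knockdown library. Its skipping junction had 88 reads in the control and 185 in the knockdown library, although the knockdown library had fewer reads, and its inclusion junctions had 2837 and 2291 against 2237 and 1841. Junction PSI was 96.7 and 91.7 (-5.00 points, -6.37 to -3.69, exact adjusted p = 3.63e-11, Fisher's exact test). This change stayed under 5 points by SpliceTrap, but had the smallest adjusted p of the 34 events.

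The other cassette exon of Hnrnpdl, of 105 nt (chr5:100464654-100464758), is annotated only in transcripts labelled as targets of nonsense-mediated decay or as retaining introns. Its PSI rose from 30.4 to 37.5. The inclusion junctions had 493 and 776 reads in the control and 480 and 749 in the knockdown library, and the skipping junction 1569 and 1102 (7.01 points, 4.06 to 9.96, exact adjusted p = 0.0011). Another trio listed the skipping junction at 1982 and 1419 reads. The retained intron of 1119 nt that contains this exon was at 29.2 and 31.7 (exact adjusted p = 0.336). The 105 nt exon was thus more included and the 171 nt exon less included in the knockdown library, in a gene whose junction RPM differed by a log2 ratio of -0.04.

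In Hnrnph1, SpliceTrap gave the largest change of all 138 events, 72.3 to 89.0 for a 93 nt exon (chr11:50198146-50198238). For another trio of this exon, with fewer reads, SpliceTrap gave 99.9 in both libraries. In the trio that changed, only 5 reads in the control and 3 in the knockdown library skipped the exon. Its inclusion reads were 2109 and 207 in the control and 1996 and 215 in the knockdown library. Junction PSI was 99.6 and 99.7 (0.16 points, -0.42 to 0.76, exact adjusted p = 1, Fisher's exact test), so junction reads did not show the change. The alternative acceptor segment of 32 nt on the 5′ untranslated side was at 6.3 and 9.5 (exact adjusted p = 0.861), the 50 nt exon at 96.4 and 94.9 (exact adjusted p = 1) and the 30 nt donor segment at 92.5 and 92.9 (exact adjusted p = 1).

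Hnrnph1 and Hnrnph3 share an alternative exon of 139 nt, which is not a multiple of 3 (chr11:50194961-50195099, plus strand, and chr10:62481508-62481646, minus strand). The exons were identical at 126 of 139 bases, or 90.6%, and are shown to mark how alike the paralogs are, with capitals at the bases that differ.
Hnrnph1, 139 nt: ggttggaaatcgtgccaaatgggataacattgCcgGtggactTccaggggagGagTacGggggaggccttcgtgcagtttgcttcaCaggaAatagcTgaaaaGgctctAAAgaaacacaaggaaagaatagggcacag
Hnrnph3, 139 nt: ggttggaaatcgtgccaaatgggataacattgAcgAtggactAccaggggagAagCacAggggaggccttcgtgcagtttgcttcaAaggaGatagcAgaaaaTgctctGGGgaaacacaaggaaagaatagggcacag

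In Hnrnph1 this exon went from 93.5 to 91.8, with 410 and 358 skipping reads (-1.59 points, -2.61 to -0.59, exact adjusted p = 0.224, Fisher's exact test). In Hnrnph3 it went from 73.0 to 69.8, with inclusion junctions at 760 and 537 reads in the control and 617 and 416 in the knockdown library and skipping at 259 and 228 (-2.08 points, -6.51 to 2.32, exact adjusted p = 1). PSI was lower in the knockdown library in both genes, and neither change passed adjustment.

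In Hnrnpk the segment that alternates is 60 nt long and begins the last part of the coding sequence (chr13:58493778-58493837). Use of the upstream acceptor, which includes it, was 62.2 in the control and 57.1 in the knockdown library. Other trios of the segment, with fewer reads, went from 59 to 52.5 and from 57.3 to 52.9, the last a change under 5 points. In the trio with the most reads, the splice junction of the long form had 2820 reads in the control and 1571 in the knockdown library. The unspliced boundary at the other end of the segment had 4600 and 2460, and the short form 3093 and 2021. From these counts, junction PSI was 54.5 and 49.9 (-4.60 points, -6.54 to -2.65, exact adjusted p = 0.00116, Fisher's exact test). The largest counts of any trio were 6839 and 3784 for the long form and 5207 and 3255 for the short form. The coding sequence of 2 of 6 annotated protein-coding transcripts ends inside the segment, so the long and the short form differ in their C-terminal residues. The first 13 bases of the segment, tgtgaagcagtat, recur where the short form begins, so reads that pass the acceptor by no more than these cannot tell both forms apart. The 54 nt exon on the 5′ untranslated side of Hnrnpk was at 9.8 and 10.0, with 2658 and 2026 skipping reads (exact adjusted p = 1).

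In Hnrnpl, the events of intermediate PSI lie side by side or overlap. The retained intron of 111 nt (chr7:29603552-29603662) was at 50.2 and 47.3, with 467 and 449 reads that spliced it out (-1.94 points, -6.82 to 2.95, exact adjusted p = 1, Fisher's exact test). The exons of 464 and 281 nt that contain or follow it were at 75.9 and 77.2 and at 73.6 and 76.6 by SpliceTrap, but had 0 or 1 skipping reads in each library, so junction reads gave 99.8 or more in both. In Hnrnpll none of the 11 events was of intermediate PSI, and PSI lay between 98.9 and 99.9 in both libraries.

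**Figure D4:**
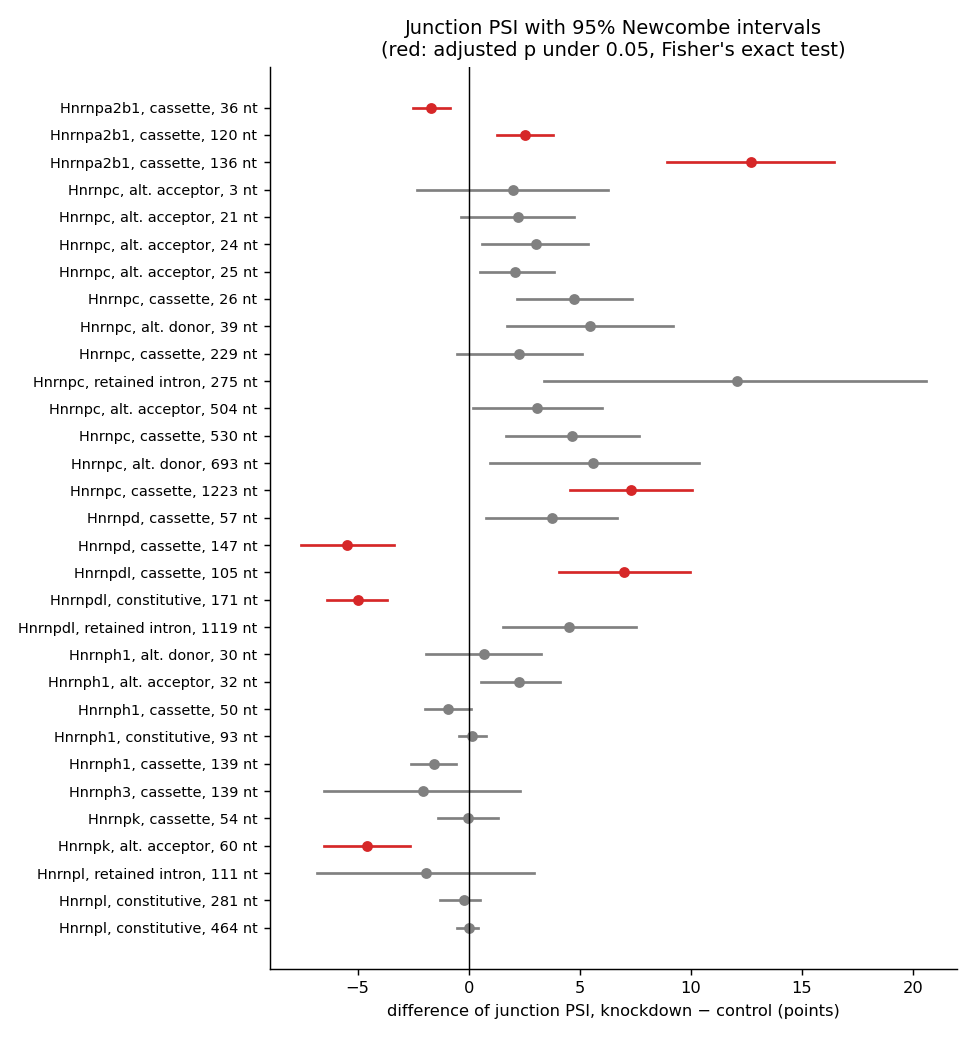
Difference of junction PSI between the knockdown and the control library (x axis, points) of the same events, with 95% Newcombe intervals for counting error. Red marks the events with an adjusted p under 0.05 by Fisher's exact test, of which the 136 nt exon of Hnrnpa2b1 has the highest difference (12.7) and the 147 nt exon of Hnrnpd the lowest (-5.46).

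By position, 20 of the 34 events were in coding sequence and 16 of these 20 had a length that is a multiple of 3. The exceptions were the 139 nt exons of Hnrnph1 and Hnrnph3 and the 464 and 281 nt exons of Hnrnpl.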

How the data were processed

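The submitters' processing notes name CASAVA, TopHat, Cufflinks and mm9, and the study used SpliceTrap for exon inclusion. Versions are not given in the sources used here. The authors deposited inclusion ratios as a fraction before and after correction, junction read counts without normalization, coverage of each trio in reads per 100 nucleotides, and, for isoforms, FPKM and coverage as depth per base. Gene-level FPKM were not used.

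PSI was the corrected ratio times 100, at 20 or more trio reads in each library. Junction reads were tested by Fisher's exact test with Benjamini-Hochberg adjustment and given 95% Wilson and Newcombe intervals. Short exons list most spanning reads on the genomic left junction (86.7% at 1 to 30 nt), which lowers their junction PSI. Gene levels were first planned as depth times length of RefSeq isoforms scaled to the library total. Junction reads per 1000000 (RPM), used to lead the text, were chosen after seeing the data. They take the largest count of each junction over its trios, while event counts are those of 1 trio. Genes needed 100 fragments or junction reads over both libraries.

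The rule named all 10 genes, their events of PSI from 5 to 95 or a change of 5 points, and the 5 largest log2 ratios of the further list. Some events that the rule takes, and that the totals count, are not reported here. Members, lists and tests were chosen with earlier results of these data known. Gene models were GENCODE for NCBIM37. AG preceded 109 and GT followed 109 of 112 cassette and constitutive exons. Scripts (Python 3.11.15, pandas 2.3.3, SciPy 1.17.1) were tested on simulated data. Other settings were all isoforms, the deepest RefSeq isoform, FPKM with pseudocounts of 1 and 0.1, median scaling, no filter, higher thresholds, 10 or 50 reads, the uncorrected ratio, junction PSI, every trio, and cassette events alone.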

Additional observations from a re-analysis of the deposited data

How the results depend on the processing

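With 1 library in each group no result has a replicate check, leaving out a library was impossible, and depth limits events with few skipping reads. The median RefSeq log2 ratio of the 10 genes (0.28) was 0.06 by FPKM with a pseudocount of 1 or 0.1, 0.16 when scaled to the median of all genes, -0.24 over all isoforms, -0.04 for the deepest RefSeq isoform, -0.16 by junction reads and -0.33 by junction reads scaled to the median of all genes. Genes higher by 0.5 (4) numbered 0 over all isoforms and by junction reads under both scalings. Genes lower by 0.5 (1) numbered 2 by FPKM with either pseudocount and for the deepest isoform, which is 0 for Hnrnpc in the knockdown library and gives no ratio there, and 0 by junction reads under both scalings. Of the genes past 0.5, direction turned over all isoforms for Hnrnpa1 (-0.51), Hnrnpa2b1 (-0.32), Hnrnph3 (-0.29) and Hnrnpk (-0.33), for the deepest isoform for Hnrnpa2b1 (-0.04), by junction reads for Hnrnpa1 (-0.20), Hnrnpa2b1 (-0.26) and Hnrnpk (-0.29), and by junction reads scaled to the median for these 3 (-0.36, -0.42 and -0.46). Of the genes under 0.5, Hnrnpdl (0.12), Hnrnph1 (0.29) and Hnrnpll (0.26) turned to -0.05, -0.01 and -0.20 over all isoforms, to -0.22, -0.03 and -0.08 for the deepest isoform, to -0.04, -0.03 and -0.20 by junction reads and to -0.20, -0.19 and -0.36 by junction reads scaled to the median, and Hnrnpdl to -0.09 by FPKM. Events that rose by the threshold (6) numbered 2 at 10 points and 3 for cassette events alone. Those that fell (2) numbered 0 at 10 points, 1 for cassette events alone and 1 by the left inclusion junction, by which the 229 nt exon of Hnrnpc (1.8) turned to -1.7. By junction PSI, from both junctions or the left one, the 54 nt exon of Hnrnpk (0.2) turned to -0.1 and the 281 nt exon of Hnrnpl (3.0) to -0.2. Other settings, of which the left junction and junction reads were chosen after seeing the data, left the counts of events within 1.5 times. No paired analysis was possible because each group has 1 library.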
